A study of Mus musculus with 9 samples.

Results

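The genes described here are 10 immediate early genes of the Nr4a, Egr and AP-1 families, namely Nr4a1, Nr4a2, Nr4a3, Egr1, Egr2, Egr3, Fos, Fosb, Jun and Junb. They are genes that a T-cell receptor (TCR) signal is known to induce. They were chosen by symbol and not by their values, and all 10 were found among the 24060 genes of the deposited table. Their levels were compared between CD8 T cells of 3 transnuclear mouse lines, Rop7-I, Rop7-II and Rop7-III, with 3 biological replicates per line and 9 samples in all. Each line was made by nuclear transfer from a CD8 T cell specific for the Rop7 peptide of the parasite Toxoplasma gondii on the class I molecule H-2Ld and carries the rearranged receptor genes of that cell, and each line is called a clone here. Per the paper, further rearrangement in these mice also gives CD8 T cells that the tetramer does not stain, so that only the sort on the tetramer selects for the original receptor. All mice were on a BALB/c background and, per the paper, homozygous for the α and β chains of that receptor. Ages were not given in the sources used here. Spleen cells of all 3 clones were kept overnight with interleukin 2 at 10 ng per ml and no antigen, and sorting of CD3+ CD8+ cells stained by the H-2Ld-Rop7 tetramer gave a purity of 90 to 95%.

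Immediate early genes are transcribed within minutes of a signal from transcription factors that are already present in the cell, and their transcripts are short-lived. In T cells, calcium signals through MEF2 and NFAT and the ERK pathway through SRF and its ternary complex partners drive them. Nr4a1 encodes the orphan nuclear receptor Nur77, and a Nur77-GFP reporter and the surface level of CD5 are the measures by which the study ranked the clones for self-reactivity, that is, for the signal received from self-peptides without the parasite antigen. The question asked here of these 10 genes is whether their transcripts differed between the clones in cells that the paper calls unstimulated. The tetramer used in the sort is itself a ligand of these receptors, and elsewhere the paper used such tetramers to stimulate the cells. Any effect of the tetramer staining on these genes was not tested.

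The promoter sequences of 4 of the genes are shown because they carry matches to the elements named below, and because genes of all 3 families were measured side by side. Elements of MEF2 and NFAT were not searched for. Each sequence is the 250 bases before a RefSeq transcription start, on GRCm38.p6, 5′ to 3′ on the strand of the gene. Capitals mark matches, on either strand, to the core of a cAMP response element (TGACG, read as CGTCA on the other strand), to the CArG box that SRF binds, to the AP-1-like element TGACATCA known from the Jun promoter, or to the Egr element GCGGGGGCG.
Nr4a1: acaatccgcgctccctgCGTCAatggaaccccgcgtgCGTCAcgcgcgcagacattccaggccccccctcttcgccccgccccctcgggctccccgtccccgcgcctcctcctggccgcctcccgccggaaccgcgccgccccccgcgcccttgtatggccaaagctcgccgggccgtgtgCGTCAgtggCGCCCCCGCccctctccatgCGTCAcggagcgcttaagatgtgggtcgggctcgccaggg
Egr2: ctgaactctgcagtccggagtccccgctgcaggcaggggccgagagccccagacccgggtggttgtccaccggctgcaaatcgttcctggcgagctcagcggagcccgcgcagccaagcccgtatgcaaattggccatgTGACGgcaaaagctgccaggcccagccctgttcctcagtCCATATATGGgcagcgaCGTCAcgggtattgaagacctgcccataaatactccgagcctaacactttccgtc
Fos: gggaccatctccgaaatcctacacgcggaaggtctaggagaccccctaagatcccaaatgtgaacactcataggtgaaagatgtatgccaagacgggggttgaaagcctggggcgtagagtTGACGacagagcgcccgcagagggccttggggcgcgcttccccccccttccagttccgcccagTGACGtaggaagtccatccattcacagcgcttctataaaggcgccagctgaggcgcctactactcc
Jun: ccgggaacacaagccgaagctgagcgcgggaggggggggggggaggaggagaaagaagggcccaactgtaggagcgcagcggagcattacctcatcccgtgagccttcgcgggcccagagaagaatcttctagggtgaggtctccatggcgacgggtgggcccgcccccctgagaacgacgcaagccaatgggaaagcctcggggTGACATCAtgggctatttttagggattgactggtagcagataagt
The Nr4a1 sequence lies at chr15:101266596-101266845 on the plus strand, inside the annotated gene and between exons of its longer transcripts. The Egr2 sequence lies at chr10:67537619-67537868 on the plus strand and is likewise between exons of a transcript that starts further upstream. The Fos sequence at chr12:85473640-85473889 on the plus strand ends at the base before the annotated gene. The Jun sequence at chr4:95052223-95052472 is on the minus strand, next to the start of Jun, and lies within the antisense gene Junos but in none of its exons.

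The table of promoters held 12 start sites of 8 of the 10 genes. The core TGACG was present before at least 1 start of 7 of these 8 genes, the exception being Jun, and in 17.8% of 32851 mouse promoter windows of the same length. The Nr4a1 sequence held it 4 times, all on the other strand, together with the Egr element, which was found before 2 of the 8 genes, Nr4a1 and Fosb, and in 2.57% of all windows. A CArG box was found in this window before Egr2 alone among the 8, and in 1.47% of all windows. The element TGACATCA was found before Jun alone, 45 to 38 bases before its start, and in 2.93% of all windows. The full cAMP response element TGACGTCA, which contains TGACG, the AP-1 site TGACTCA, the Egr element GCGTGGGCG and the Nr4a element AAAGGTCA were each found before 0 of the 8 genes, and in 1.55%, 4.46%, 0.536% and 1.34% of all windows. The counts above are per gene, while the shares are of windows. By window, TGACG was in 9 of the 12, the CArG box in 4, all of Egr2, GCGGGGGCG in 2 and TGACATCA in 1. Some windows of Egr2 overlap. These matches are letters in a window and not measured sites.

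Values are in TPM, which divide the reads of a gene by its length and scale each sample to a common total, so that levels of different genes can be set beside each other. Tests were made with limma on log2(TPM + 1) for the 12115 genes with a TPM over 1 in at least 1 sample, and a gene was called at a Benjamini-Hochberg adjusted p under 0.01. Fold changes on this scale understate the difference of weakly expressed genes. TPM keeps no read depth, so that the counting error behind low values is unknown. Among the 10 genes, 8 were tested, and Nr4a2 and Fosb, which did not reach a TPM of 1 in any sample, were not. The libraries were not strand-specific, and 7.28% of the exon bases of Jun lie under exons of Junos and 7.52% of those of Junb under exons of Prdx2 on the opposite strand, whose reads cannot be told apart there.

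The T-cell identity of the samples was clear from 8 markers of CD8 T cells, which summed to between 6923 and 7653 TPM with none at 0. In Rop7-II replicate 1, however, all 14 B-cell markers and all 14 myeloid markers found in the table had their highest level of the 9 samples. B-cell markers summed to 2564 TPM there, against 199 and 284 in the other Rop7-II samples, 422, 1101 and 816 in Rop7-I replicates 1, 2 and 3 and 155, 329 and 234 in Rop7-III. Myeloid markers summed to 867 TPM in Rop7-II replicate 1 and to between 147 and 360 in the other samples. CD4 T-cell markers summed to 14.1 TPM in Rop7-II replicate 1 and to between 0.85 and 4.63 elsewhere, and erythroid markers were highest, at 565, in Rop7-I replicate 2. In Rop7-III the CD4 marker sum came mostly from Cd40lg, at 3.70, 2.90 and 3.01 TPM. Cd4 itself was at 0.25, 0.37 and 0.63 there, and at 6.75 in Rop7-II replicate 1. NK-cell markers summed to between 365 and 630, mostly from Klrd1 and Nkg7. The other NK-cell markers, Ncr1, Klrb1c and Klra8, were at or below 1.19 TPM in every sample. The tests of the member genes and the counts over lists are therefore also given without Rop7-II replicate 1. In bulk samples, fewer cells of a type and less RNA per cell cannot be told apart.

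Across the 3 clones, none of the tested genes was called in any comparison by limma. Rop7-III against Rop7-II called 0 of 8, where 12.3% of all tested genes were called, Rop7-III against Rop7-I called 0 of 8, where 4.85% were called, and Rop7-I against Rop7-II called 0 of 8, where 7.53% were called. At an unadjusted p under 0.05 there was 1 gene in the first comparison (Jun), 2 in the second (Jun and Junb) and 0 in the third, against 37.8%, 28% and 32.1% of all tested genes. The F test across the clones also called 0 of 8, with 14.1% of all tested genes called. Groups did not overlap for 2 of the 8 genes between Rop7-III and Rop7-II, Jun and Junb, both lower in Rop7-III, where 40.7% of all tested genes did not overlap and 21.2% did so with Rop7-III lower. Between Rop7-III and Rop7-I this held for Jun alone, lower in Rop7-III, against 38.2% of all tested genes in either direction and 19.7% in that one, and between Rop7-I and Rop7-II for 0 genes, against 35%.

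**Figure D1:**
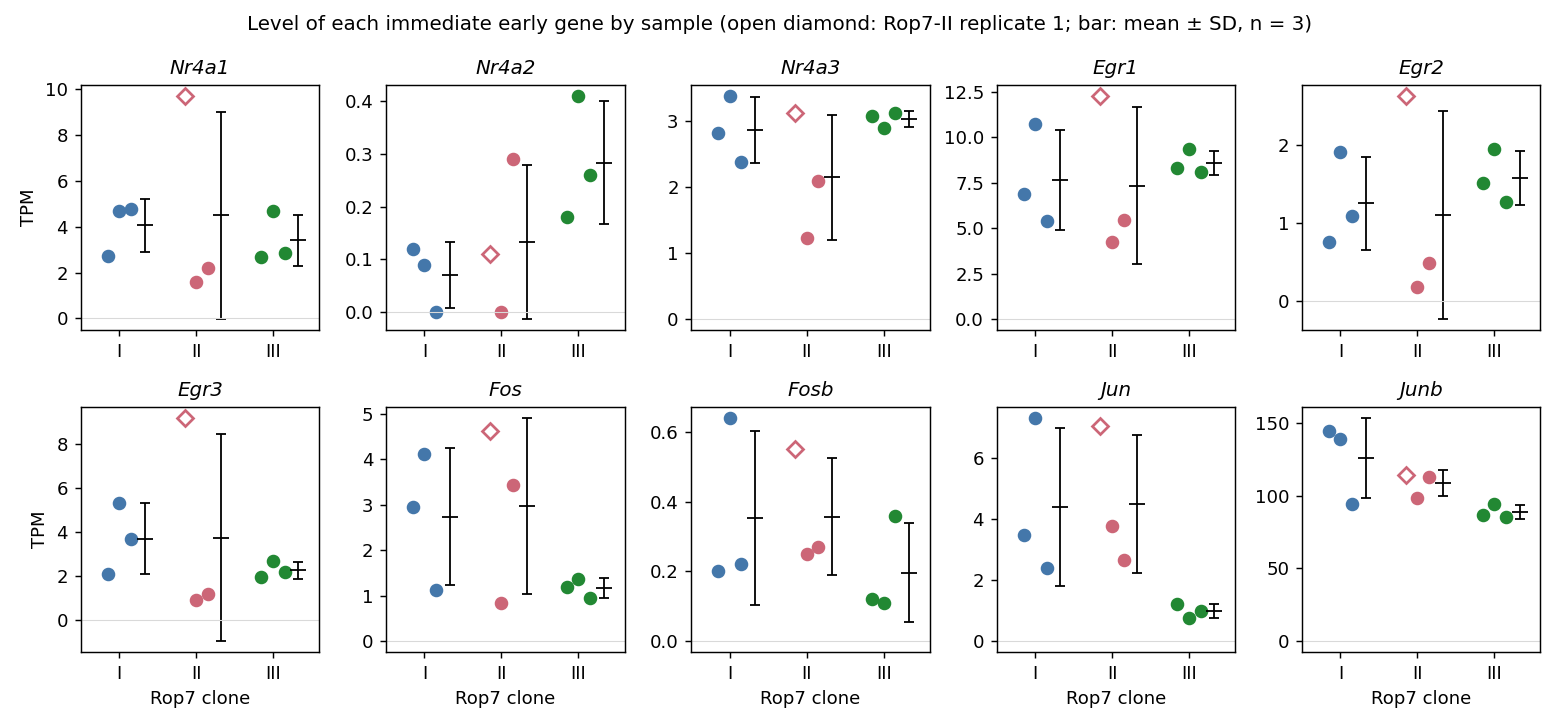
TPM of each of the 10 genes in the 9 samples by clone, with 1 point per sample and the mean ± SD of 3 replicates beside it. The open diamond, Rop7-II replicate 1, was the highest of the 9 samples for Nr4a1, Egr1, Egr2, Egr3 and Fos, and the 3 Rop7-III points lie below all others for Jun.

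Among the Nr4a genes, which encode nuclear receptors that act without a known ligand, Nr4a1 and Nr4a3 were expressed at low levels and Nr4a2 was barely detected. Nr4a1 was at 2.74, 4.69 and 4.79 TPM in Rop7-I, at 9.70, 1.59 and 2.19 in Rop7-II and at 2.69, 4.70 and 2.85 in Rop7-III. The highest and the lowest value of the 9 were both from Rop7-II, and the means of 4.07 ± 1.16, 4.49 ± 4.52 and 3.41 ± 1.12 TPM (SD, n = 3 each) differed by less than the spread of the Rop7-II samples. The log2 fold change of Rop7-III over Rop7-II was -0.04 (95% interval -1.09 to 1.01, adjusted p = 0.957), so that a difference of 1 log2 unit in either direction lay within the interval.

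Without Rop7-II replicate 1, the 2 remaining Rop7-II samples were below all 6 others for Nr4a1. The log2 fold change of Rop7-III over Rop7-II was then 0.59 (95% interval 0.03 to 1.15, adjusted p = 0.121), and that of Rop7-I over Rop7-II was 0.79 (95% interval 0.23 to 1.35, adjusted p = 0.0576). Neither difference was called. The value between Rop7-III and Rop7-II was near 0 with all samples, and its direction also changed without Rop7-III replicate 1 (0.07) or 3 (0.04). Rop7-III and Rop7-I overlapped with and without that sample, with a log2 fold change of -0.20 (95% interval -0.70 to 0.30, adjusted p = 0.575) in its absence.

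Nr4a3, the third receptor of the family, was at 2.82, 3.38 and 2.38 TPM in Rop7-I, at 3.12, 1.23 and 2.10 in Rop7-II and at 3.08, 2.90 and 3.13 in Rop7-III. The Rop7-III samples lay within a narrow range and inside the spread of Rop7-I. Rop7-III over Rop7-II gave a log2 fold change of 0.40 (SE 0.21, adjusted p = 0.188), and without Rop7-II replicate 1 one of 0.62 (95% interval 0.23 to 1.01, adjusted p = 0.0319). Nr4a2 was at 0.12, 0.09 and 0 TPM in Rop7-I, at 0.11, 0 and 0.29 in Rop7-II and at 0.18, 0.41 and 0.26 in Rop7-III, where 0 is the listed value. Its 3 Rop7-III samples were above the 3 Rop7-I samples, with a log2 fold change of 0.26 (adjusted p = 0.178) when all genes with any value were tested. Within the family, Nr4a1 held between 45.2% and 75% of the summed TPM and Nr4a3 between 24.1% and 51.8%, with the largest share of Nr4a1 in Rop7-II replicate 1.

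Among the Egr genes, zinc finger factors induced by the ERK pathway, Egr1 was the most abundant and held 51% to 79.5% of the family's TPM. Egr1 was at 6.85, 10.7 and 5.41 TPM in Rop7-I, at 12.3, 4.24 and 5.47 in Rop7-II and at 8.31, 9.34 and 8.10 in Rop7-III. The 3 clones had similar means of 7.66 ± 2.75, 7.32 ± 4.32 and 8.58 ± 0.66 TPM (SD, n = 3 each), and the Rop7-III samples differed least among themselves. Rop7-III over Rop7-II gave a log2 fold change of 0.32 (95% interval -0.41 to 1.05, adjusted p = 0.499), and without Rop7-II replicate 1 it was 0.72 (95% interval 0.22 to 1.22, adjusted p = 0.0462).

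Egr2, which with Egr3 is known for restraining T-cell activation and inducing anergy genes, was at 0.75, 1.91 and 1.08 TPM in Rop7-I, at 2.62, 0.18 and 0.49 in Rop7-II and at 1.51, 1.94 and 1.26 in Rop7-III. Rop7-II again held both the highest and the lowest samples. The log2 fold change of Rop7-III over Rop7-II was 0.46 (SE 0.38, adjusted p = 0.405), and without Rop7-II replicate 1 it was 0.95 (SE 0.24, adjusted p = 0.0229), the largest positive one of the 8 genes in that comparison. Egr3 was at 2.09, 5.33 and 3.70 TPM in Rop7-I, at 9.17, 0.91 and 1.17 in Rop7-II and at 1.94, 2.67 and 2.17 in Rop7-III. Its level in Rop7-II replicate 1 exceeded every other sample, while the other Rop7-II samples were below every other sample. Rop7-III over Rop7-II gave -0.10 (95% interval -1.35 to 1.15, adjusted p = 0.911) with all samples and 0.67 (95% interval 0.07 to 1.27, adjusted p = 0.101) without that sample. Rop7-I over Rop7-II gave 0.37 (SE 0.56, adjusted p = 0.694) and, without it, 1.15 (95% interval 0.55 to 1.75, adjusted p = 0.0186). The Rop7-I samples also had higher B-cell marker sums, at 422, 1101 and 816 TPM, than the remaining Rop7-II samples, at 199 and 284. The part of B-cell RNA in this difference was not tested.

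Among the AP-1 genes, the transcripts of Junb far outnumbered those of its partners and held 90.3% to 97.7% of the summed TPM of the 4 genes in every sample. Junb, which encodes a Jun protein with weaker transactivation than Jun itself, was at 144, 139 and 93.9 TPM in Rop7-I, at 114.0, 98.3 and 113 in Rop7-II and at 86.9, 94.3 and 85.4 in Rop7-III. All 3 Rop7-III samples were below the 3 Rop7-II samples and 1 of them was above the lowest Rop7-I sample. The log2 fold change was -0.28 (SE 0.14, adjusted p = 0.177) for Rop7-III over Rop7-II and -0.47 (SE 0.14, adjusted p = 0.0573) for Rop7-III over Rop7-I. Leaving out Rop7-II replicate 1 gave -0.25 (adjusted p = 0.306) and -0.47 (adjusted p = 0.0516). Without Rop7-I replicate 3, the lowest sample of that clone, the latter was -0.67 with an adjusted p of 0.00135 and was called.

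Jun, which forms the classical AP-1 dimer with Fos, differed most between the clones among the 8 genes. It was at 3.48, 7.32 and 2.41 TPM in Rop7-I, at 7.05, 3.79 and 2.66 in Rop7-II and at 1.23, 0.77 and 0.98 in Rop7-III. Every Rop7-III sample was below every sample of the other clones. The log2 fold change was -1.39 (95% interval -2.18 to -0.60, adjusted p = 0.0190) for Rop7-III over Rop7-II and -1.34 (95% interval -2.13 to -0.55, adjusted p = 0.0370) for Rop7-III over Rop7-I. Both missed the limit of 0.01, as did the F test across the clones (adjusted p = 0.0222). Without Rop7-II replicate 1, the values were -1.08 (adjusted p = 0.0435) and -1.34 (adjusted p = 0.0152), and without Rop7-I replicate 2, the highest Jun sample, that of Rop7-III over Rop7-II had an adjusted p of 0.00942.

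Fos was at 2.94, 4.12 and 1.13 TPM in Rop7-I, at 4.63, 0.84 and 3.43 in Rop7-II and at 1.2, 1.37 and 0.94 in Rop7-III. The Rop7-III samples were all at the low end, and 1 sample each of Rop7-I and Rop7-II lay among or below them. In Rop7-III, Fos had a log2 fold change of -0.73 over Rop7-II (SE 0.42, adjusted p = 0.240) and -0.70 over Rop7-I (SE 0.42, adjusted p = 0.323), and without Rop7-II replicate 1 these were -0.40 (adjusted p = 0.530) and -0.70 (adjusted p = 0.237). Fosb, another member of the Fos family, was at 0.20, 0.64 and 0.22 TPM in Rop7-I, at 0.55, 0.25 and 0.27 in Rop7-II and at 0.12, 0.11 and 0.36 in Rop7-III. At these levels the clones overlapped in every pair.

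**Figure D2:**
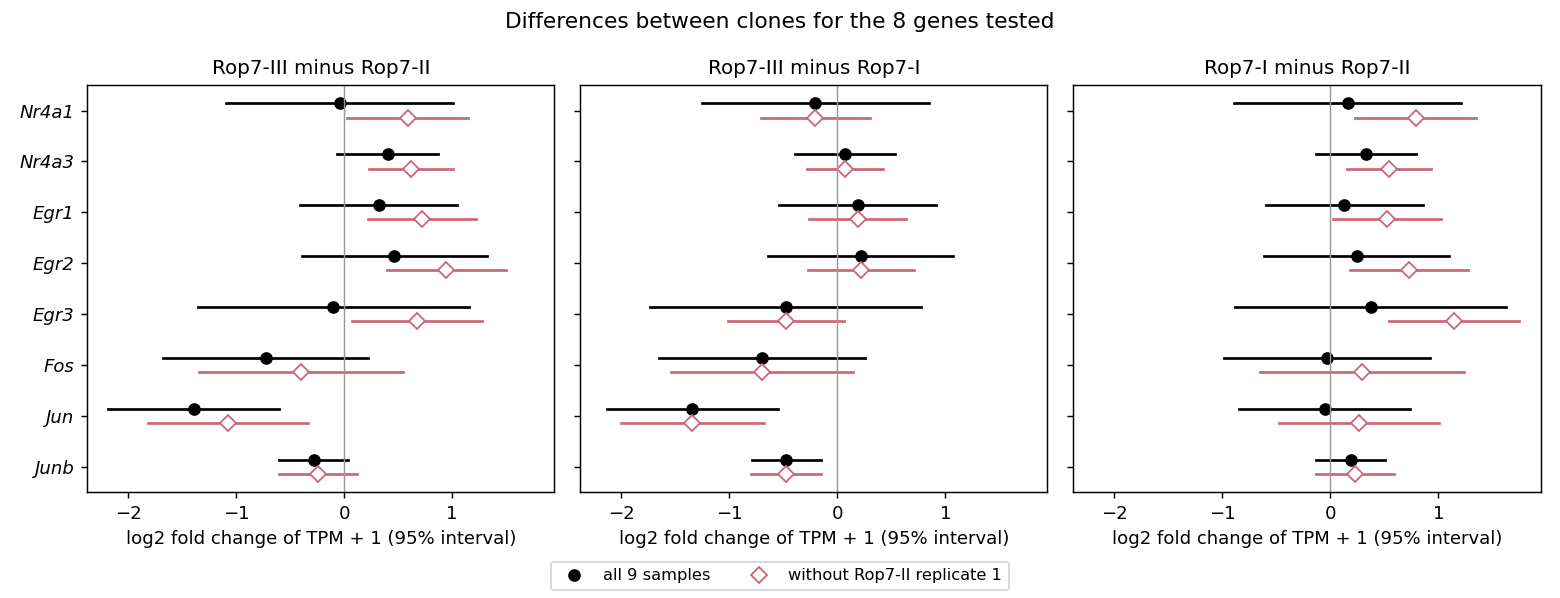
Log2 fold change of TPM + 1 with its 95% interval from limma for the 8 tested genes in the 3 pairs of clones, with all 9 samples (black points) and without Rop7-II replicate 1 (open diamonds). Leaving out that sample moved the Nr4a and Egr genes to the right in both comparisons with Rop7-II, for Nr4a1 from -0.04 to 0.59 between Rop7-III and Rop7-II, while Jun stayed to the left of 0 in both comparisons of Rop7-III.

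The picture of the families therefore differed with and without Rop7-II replicate 1. Without it, 7 of the 8 genes did not overlap between Rop7-III and Rop7-II, with Nr4a1, Nr4a3, Egr1, Egr2 and Egr3 higher and Jun and Junb lower in Rop7-III, where 51.3% of all genes tested did not overlap with 3 samples against 2, 25.6% with Rop7-III higher and 25.7% with it lower. Between Rop7-I and Rop7-II, Nr4a1, Nr4a3, Egr2 and Egr3 did not overlap and were higher in Rop7-I, where 47.8% of all genes tested did not overlap and 24.4% did so with Rop7-I higher. Rop7-III and Rop7-I were apart for Jun alone, against 38.3%. Limma nevertheless called 0 of 8 in each pair, against 11%, 6.97% and 7.34% of 11916 genes. At an unadjusted p under 0.05 there were 6, 2 and 5 of the 8, against 36.1%, 32.2% and 32.7%. The median log2 fold change over the 8 genes between Rop7-III and Rop7-II was -0.07 with all samples and 0.60 without Rop7-II replicate 1, beside -0.02 and -0.01 over all tested genes.

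Cd5 was examined as the transcript of the second measure of self-reactivity. It was at 72.9, 71.5 and 58.5 TPM in Rop7-I, at 33.4, 52.9 and 37.9 in Rop7-II and at 176, 181 and 175 in Rop7-III, and the 3 clones did not overlap. Cd5 in Rop7-III exceeded that in Rop7-II by 2.10 log2 units (SE 0.15, adjusted p = 2.19e-05) and that in Rop7-I by 1.39 (SE 0.15, adjusted p = 0.000473). Rop7-I over Rop7-II gave 0.71 (adjusted p = 0.01002) and was just short of the limit. Nr4a1 showed no such order of the clones in these samples. The paper's ranking rests on reporter GFP protein in mice crossed to the Nur77-GFP line, not on Nr4a1 transcripts. In mature cells it reports the lowest GFP in Rop7-II, and more in Rop7-III than in Rop7-I. The transcripts here are from cells kept overnight with interleukin 2, so the measures are unlike. Without Rop7-II replicate 1, Rop7-II had the lowest values for both Cd5 and Nr4a1, and Rop7-I and Rop7-III, which were well apart for Cd5, overlapped for Nr4a1.

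Within clones, the 8 genes tended to be high or low in the same samples. All 8 were above the mean of their clone in Rop7-II replicate 1, where 54.1% of all tested genes were, and all 8 in Rop7-I replicate 2, where 48.9% were, whereas 0 of 8 were in Rop7-II replicate 2, where 42.5% were. The mean deviation over the 8 genes was 0.79 log2 units in Rop7-II replicate 1, 0.40 in Rop7-I replicate 2 and -0.56 in Rop7-II replicate 2, and lay between -0.08 and 0.11 in the 3 Rop7-III samples. Of the 28 pairs of genes, 28 had a positive Pearson r of these deviations over the 9 samples, with a median of 0.72, and 25 of 28 without Rop7-II replicate 1, with a median of 0.53. These are descriptions over samples that share 3 clone means and, for each sample, 1 library. The same r were not computed for pairs of all tested genes, so it is unknown how unusual these are. Rop7-II replicate 1 was the highest of the 9 samples for 5 of the 8 genes and for 20.8% of all tested genes.

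**Figure D3:**
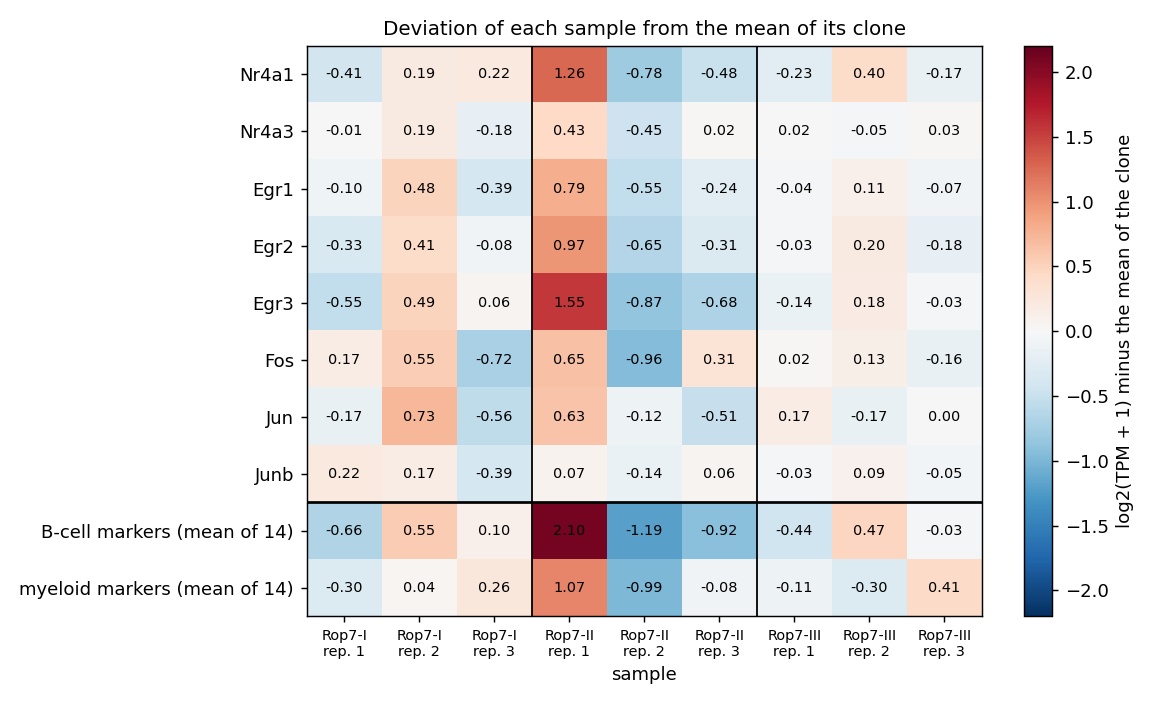
Difference of log2(TPM + 1) in each sample from the mean of its clone, for the 8 tested genes and for the mean of 14 B-cell and 14 myeloid markers, on a colour scale centred on 0. All 8 genes are above their clone mean in Rop7-II replicate 1 and in Rop7-I replicate 2, and the B-cell markers are highest in the same samples of Rop7-I and Rop7-II.

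For 4 of the 8 genes, the highest sample of every clone was also the one with the highest B-cell marker sum. The highest B-cell marker sum of each clone was in Rop7-I replicate 2, in Rop7-II replicate 1 and, for the last clone, in Rop7-III replicate 2. Egr1, Egr2, Egr3 and Fos had their highest level in exactly these samples, as did 5.46% of all tested genes. For Nr4a1, Nr4a3, Jun and Junb this held in 2 clones only. Egr3 followed the order of the B-cell marker sum through all 3 samples of every clone, as did 1.05% of all tested genes. For the myeloid marker sum, 0 of the 8 genes had their highest level in the highest sample of every clone, against 5.93% of all tested genes. Of the other genes, Nr4a1 and Egr2 followed the B-cell order in full in 2 clones, Nr4a3, Egr1, Fos and Junb in 1 and Jun in 0. The myeloid order was followed in full in 2 clones by Nr4a1 and Nr4a3, in 0 by Jun and in 1 by each of the others. Whether B-cell RNA accounts for part of these levels was not tested.

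With the level of the B-cell markers as a covariate of the fit, an alternative chosen after seeing the data, Egr2 and Egr3 were called between Rop7-III and Rop7-II. Egr2 was higher in Rop7-III by 0.92 (SE 0.16, adjusted p = 0.00409) and Egr3 by 0.61 (SE 0.13, adjusted p = 0.00956), where 11.5% of all tested genes were called. The pairs of Rop7-III with Rop7-I and of Rop7-I with Rop7-II had 0 calls among the 8, against 4% and 8.99%. Rop7-I over Rop7-II then gave 0.034 for Egr2 (adjusted p = 0.898) and 0.045 for Egr3 (adjusted p = 0.822). In the same fit Nr4a1 gave -0.11, Nr4a3 0.24 and Egr1 -0.038. For Rop7-III, Nr4a1 had a log2 fold change of 0.55 over Rop7-II (adjusted p = 0.0155) and of 0.66 over Rop7-I (adjusted p = 0.0189). Jun had one of -1.11 over Rop7-II (adjusted p = 0.0296) and of -0.93 over Rop7-I (adjusted p = 0.112). With the level of the myeloid markers instead, 0 of 8 genes were called in any pair, against 4.62%, 3.88% and 5.37% of all tested genes, and Egr3 had an adjusted p of 0.108 between Rop7-III and Rop7-II. The markers differ between clones as well as within them, so that such a fit takes up part of any difference between clones that runs with them.

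The spread of these genes between replicates was wide for their level. The residual SD on the log2 scale was 0.70 for Nr4a1, 0.84 for Egr3 and 0.21 for Junb, between 3.97 and 4.27 times the SD that the limma trend gave for genes of the same level (0.18, 0.20 and 0.05). Nr4a3 had the smallest ratio of the 8 genes, 1.41. Without Rop7-II replicate 1, the ratio was 1.92 for Nr4a1, 1.83 for Egr3, 1.2 for Egr2 and 1.06 for Nr4a3, but still 2.83 for Fos and 4.63 for Junb. The ratio thus moved with 1 sample for Nr4a1, Egr2 and Egr3 and little for Fos and Junb.

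The genes whose levels over the 9 samples were most like those of Nr4a1 by Pearson's r on log2(TPM + 1), leaving out the 10 genes themselves, were Tcf4 (r = 0.973), Irf4 (r = 0.973) and Zfp296 (r = 0.972). Irf4, a factor induced by antigen receptor signals in both T and B cells, was at 3.07, 6.52 and 5.36 TPM in Rop7-I, at 13.5, 1.25 and 1.09 in Rop7-II and at 2.19, 4.62 and 2.59 in Rop7-III. Tcf4, which encodes the E protein E2-2, was at 5.97 TPM in Rop7-II replicate 1 and at 0.68 to 2.68 in the other samples. Without Rop7-II replicate 1 these r were 0.942, 0.947 and 0.935 over 8 samples. The genes most like Egr1 were Ccl4 (r = 0.934), Rgs1 (r = 0.931) and Hes6 (r = 0.931), and those most like Fos were Mrpl53, Tufm and Ppan (r = 0.925, 0.923 and 0.921). Each was picked as the highest of 12115 genes and describes these samples only.

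Related genes were examined in lists by role. Of the 11 tested among 15 other AP-1 and ATF family genes, 1 was called between Rop7-III and Rop7-II, 0 between Rop7-III and Rop7-I and 2 between Rop7-I and Rop7-II, beside 12.3%, 4.85% and 7.53% of all tested genes. The counts were 2, 1 and 2 without Rop7-II replicate 1. Batf, which pairs with Jun proteins at composite sites with IRF4, was at 38.2, 33.9 and 34.5 TPM in Rop7-I, at 21.8, 21.0 and 20.8 in Rop7-II and at 33.0, 33.7 and 34.7 in Rop7-III. Its level exceeded that of Rop7-II by 0.65 log2 units in Rop7-III (SE 0.05, adjusted p = 5.29e-05) and by 0.72 in Rop7-I (SE 0.05, adjusted p = 4.03e-05), and its level in Rop7-II replicate 1 was close to that in the other Rop7-II samples. Jund, the Jun protein expressed in resting cells, was at 119 ± 11.2 TPM in Rop7-I, 172 ± 9.72 in Rop7-II and 149 ± 5.00 in Rop7-III (SD, n = 3 each) and was lowest in Rop7-I, with a log2 fold change over Rop7-II of -0.53 (adjusted p = 0.00101). Maff, a small Maf protein, was at 8.59 ± 0.51, 6.93 ± 0.33 and 6.55 ± 0.34 TPM and was not called in any pair.

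Of the 28 tested among 31 other immediate early response genes, 7 were called with the higher level in Rop7-I and 0 with the higher level in Rop7-II when these clones were compared, against 3.67% and 3.85% of all tested genes. The 7 were Btg2, Zfp36, Zfp36l1, Per1, Nfkbiz, Myc and Rhob, and 5 genes of the list were called higher without Rop7-II replicate 1. The count fell to 3 without Rop7-I replicate 2, to 4 without Rop7-I replicate 1 or Rop7-III replicate 1, to 3 with only the clones compared and to 4 with the replicate number as a block. Between Rop7-III and Rop7-II, Btg2, Nfkbiz and Rhob were called higher in Rop7-III, where 6.39% of all tested genes were, and Ier5 lower, a call that was lost without Rop7-II replicate 1. Between Rop7-III and Rop7-I only Zfp36l1 of the list was called, lower in Rop7-III, and the count of the list in that pair was 2 without Rop7-II replicate 1 or 2 and 0 without Rop7-I replicate 1 or 2, without Rop7-III replicate 1 or 2 and with the replicate block. Rhob, a small GTPase, was at 71.6, 78.9 and 63.8 TPM in Rop7-I, at 22.2, 37.1 and 15.7 in Rop7-II and at 87.6, 87.9 and 74.7 in Rop7-III. The Rop7-II samples were all below those of the other clones, with a log2 fold change of 1.78 for Rop7-III over Rop7-II (SE 0.24, adjusted p = 0.000881) and of 1.56 for Rop7-I over Rop7-II (SE 0.24, adjusted p = 0.00277). The second call was lost without Rop7-I replicate 1 or 2 (adjusted p = 0.0122 and 0.0155). Nfkbiz, which encodes the atypical IκB protein IκBζ, was higher than in Rop7-II by 0.71 in Rop7-III (SE 0.05, adjusted p = 1.79e-05) and by 0.69 in Rop7-I (SE 0.05, adjusted p = 2.71e-05). Btg2, an antiproliferative factor, gave 0.29 for Rop7-III over Rop7-II (SE 0.03, adjusted p = 0.000401). The median log2 fold change of the list was -0.06 between Rop7-III and Rop7-II and 0.09 between Rop7-I and Rop7-II, beside -0.02 and -0.01 over all tested genes.

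Of 29 upstream factors and partners, all tested, 4 were called between Rop7-III and Rop7-II, 2 in each direction, with 2 in each of the other pairs, beside 12.3%, 4.85% and 7.53% of all tested genes. There were 3, 4 and 2 without Rop7-II replicate 1. With each sample left out in turn the counts ranged from 1 to 3, from 0 to 4 and from 0 to 2, the first being 1 without Rop7-III replicate 1 or 3, the second 0 without Rop7-I replicate 1 or 3 or Rop7-III replicate 2 or 3 and the third 0 without Rop7-I replicate 2 or 3. With the myeloid marker level, the mean log2(TPM + 1) of these markers, as a covariate 0 were called in each pair. Crtc3, a CREB coactivator, had a higher level in Rop7-III by 0.39 (adjusted p = 0.00161), and Hdac4, a class IIa histone deacetylase that represses MEF2, by 0.51 (adjusted p = 0.00255, and 0.0116 and 0.0130 without Rop7-III replicate 1 or 3). Hdac7, another such deacetylase and abundant in T cells, was highest in Rop7-II, with log2 fold changes of -0.28 for Rop7-III over Rop7-II (adjusted p = 0.00281) and -0.30 for Rop7-I over Rop7-II (adjusted p = 0.00299). The former call was lost without Rop7-III replicate 1 or 3 or Rop7-II replicate 3 (adjusted p between 0.0102 and 0.0139), and the latter without Rop7-I replicate 2 or 3 or Rop7-II replicate 3 (adjusted p between 0.0101 and 0.0128). The fourth was Nab2, a corepressor that binds Egr proteins, which was lower in Rop7-III, at 42.7 TPM against 52.8 (log2 fold change -0.30, adjusted p = 0.00800). Srf itself, the MEF2 genes and the NFAT genes of the list were not called in any pair.

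Of the 18 tested among 22 T-cell genes described downstream of these factors, 2 were called between Rop7-III and Rop7-II, 1 between Rop7-III and Rop7-I and 3 between Rop7-I and Rop7-II, beside the same 12.3%, 4.85% and 7.53%. Leaving out Rop7-II replicate 1 gave 2, 1 and 2. The last fell to 1 without Rop7-I replicate 1 or 2 or Rop7-II replicate 2 or 3, and the first was 4 without Rop7-II replicate 2 and 0 with the myeloid marker covariate. Cblb, a ubiquitin ligase that restrains TCR signals, had a higher level in Rop7-III by 0.47 (adjusted p = 0.000584), and Ikzf2, which encodes Helios, by 0.66 (adjusted p = 0.000800). Bcl6, a transcriptional repressor, was at 30.9, 30.3 and 23.6 TPM in Rop7-I, at 17.7, 14.1 and 16.1 in Rop7-II and at 12.1, 13.4 and 10.4 in Rop7-III, and Rop7-III over Rop7-I gave a log2 fold change of -1.17 (SE 0.13, adjusted p = 0.000564). The third gene called between Rop7-I and Rop7-II, beside Cblb and Bcl6, was Icos, a costimulatory receptor, higher in Rop7-I by 0.25 (adjusted p = 0.00840).

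Heat shock and handling genes were examined because the stress of isolating cells can induce Fos and Jun as well. Of the 9 tested among 12, 3 were called between Rop7-III and Rop7-II, all lower in Rop7-III, as were 5.89% of all tested genes, with 1 called in each other pair. The counts became 3, 0 and 1 without Rop7-II replicate 1, and the count between Rop7-III and Rop7-I was 0 whichever sample was left out. Hsph1, a chaperone of the HSP110 family, was at 35.1 ± 1.35 TPM in Rop7-I, 39.3 ± 0.65 in Rop7-II and 30.0 ± 0.31 in Rop7-III (SD, n = 3 each), with a log2 fold change of -0.38 for Rop7-III over Rop7-II (adjusted p = 0.000275). Dnajb1, an HSP40 cochaperone, gave -0.30 (adjusted p = 0.000723) and Hsp90ab1, the constitutive HSP90, -0.23 (adjusted p = 0.00348) in the same pair. The call of Hsp90ab1 was lost without Rop7-III replicate 1 or 3 (adjusted p = 0.0178 and 0.0146). The 3 Rop7-II samples were close together for these genes, which were named for a small adjusted p. That choice favours genes with little spread between replicates. Hsp90aa1, which was not named so, was at 159, 139 and 132 TPM in Rop7-II replicates 1, 2 and 3. Hspa1b, too low to be tested, was at 0.88 TPM in Rop7-II replicate 1 and 0.87 in Rop7-I replicate 2. Hspa1a, also untested, was at 0 and 0.45 TPM in these samples. The part of the heat shock and handling genes in the Fos and Jun levels was not tested.

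**Figure D4:**
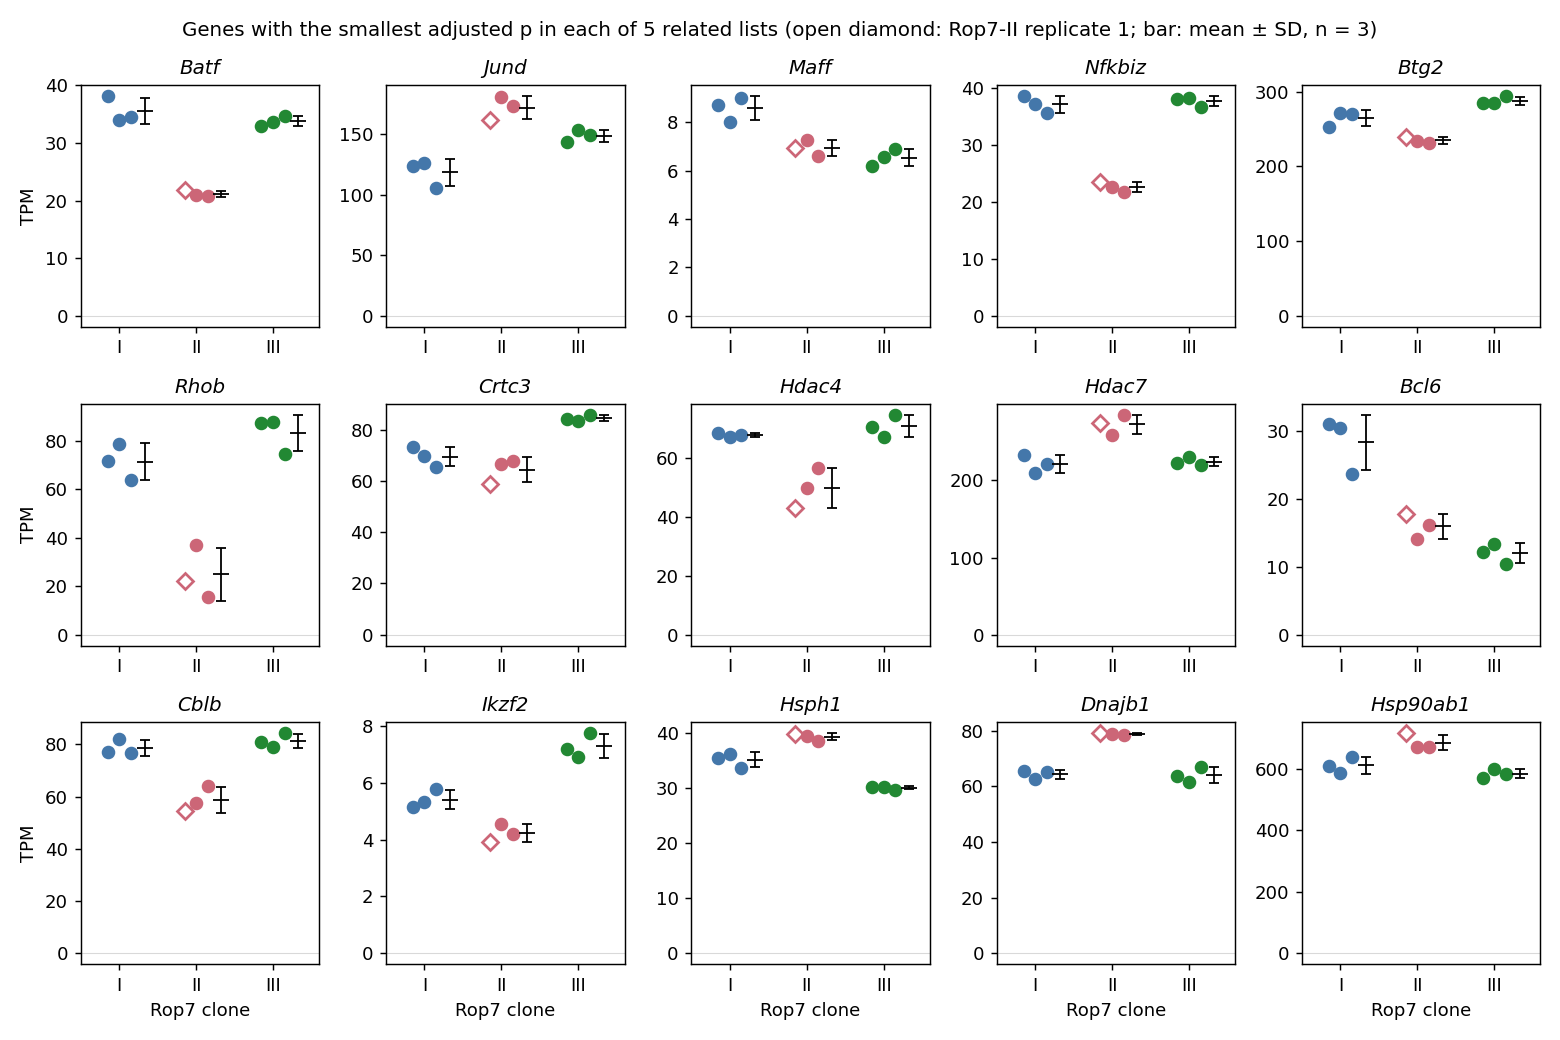
TPM of the genes with the smallest adjusted p in the 5 related lists, up to 3 per list, in the 9 samples by clone, with 1 point per sample and the mean ± SD of 3 replicates beside it. Rop7-II replicate 1 (open diamond) lies near the other Rop7-II samples for Batf, at 21.8 TPM against 21.0 and 20.8, and Rop7-II is below both other clones for Batf, Nfkbiz, Rhob and Cblb.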

How the data were processed

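RNA was sequenced from 9 samples of sorted CD8 T cells, called unstimulated in the paper. There were 3 biological replicates of each of 3 clones, grouped by their labels. Per the labels, 200 ng of RNA per sample went into a poly(A) library that was not strand-specific. With RSEM 1.2.11 and RefSeq genes on mm10, the authors estimated expression and deposited 1 table of TPM for 24060 genes. The submitters' processing notes also name DESeq2 1.8.1, a test for counts, which was not used here because the deposited values are TPM. The depth behind each value is not kept in TPM, so no interval for counting error was computed.

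The deposited TPM were put on the log2(TPM + 1) scale. The filter required over 1 TPM in at least 1 sample, after the authors' own, and limma 3.58.1 (R 4.3.3) was fitted to the 9 samples with clone as the only term and a mean-dependent spread. P-values, two-sided, were adjusted by the Benjamini-Hochberg method over all tested genes of a pair, with a limit of 0.01, and every adjusted p in the text is from limma. The script was tested on simulated data with known changes. Named are all 10 genes, Cd5, up to 3 genes of each related list with the smallest adjusted p, and the 3 genes most like Nr4a1, Egr1 and Fos, and the other called genes of a list were named after their values were seen. The 10 genes, the lists and the tests were chosen with earlier results of these data known.

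Alternatives were pseudocounts of 0.1 and 0.5, no filter, a minimum of 1 TPM in all samples, a common median, quantile normalization, no trend, sample weights, the replicate block, each sample left out, only the clones compared, an adjusted p under 0.05 and a 2-fold minimum. The covariates of B-cell or myeloid marker level were chosen after seeing the data. Promoter sequences are from RefSeq on GRCm38.p6 and gene positions from GENCODE on GRCm38, and no promoter of Egr1 or Egr3 is shown.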

Additional observations from a re-analysis of the deposited data

How the results depend on the processing

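Of the values for the 8 tested genes, 452 kept their direction and their side of the limit under the alternatives, 37 changed direction and 3 came to pass the limit in the same direction. Called genes of the 8 between Rop7-III and Rop7-II numbered 1 at an adjusted p under 0.05 and 2 with the B-cell marker covariate, and between 0 and 1 with each sample left out in turn. Between Rop7-III and Rop7-I they numbered 1 at an adjusted p under 0.05 and between 0 and 1 with each sample left out. The F test called 1 at an adjusted p under 0.05, 1 with the B-cell marker covariate and between 0 and 1 with each sample left out. The cause was not tested, beyond the looser limit itself.

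Directions that changed were all of values that were not called with all samples. For Rop7-III over Rop7-II, Nr4a1 and Egr3 gave 0.0196 and 0.0365 with a pseudocount of 0.1, 0.26 and 0.24 with sample weights, 0.55 and 0.61 with the B-cell marker covariate and 1.11 and 1.33 with the myeloid marker covariate, and ranged from -0.43 to 0.59 and from -0.53 to 0.67 with each sample left out. For Rop7-III over Rop7-I, Nr4a1 and Egr3 gave 0.66 and 0.56 with the B-cell and 0.30 and 0.14 with the myeloid covariate, and Nr4a3 and Egr1 ranged from -0.0195 to 0.17 and from -0.00353 to 0.43 with each sample left out. For Rop7-I over Rop7-II, Nr4a1 and Egr1 gave -0.11 and -0.0377 with the B-cell covariate, and Fos and Jun 0.36 and 0.19 with the myeloid covariate and 0.19 and 0.14 with sample weights, with 0.00258 for Fos at a pseudocount of 0.1. With each sample left out, that pair ranged from -0.23 to 0.79 for Nr4a1, -0.14 to 0.53 for Egr1, -0.0807 to 0.73 for Egr2, -0.0578 to 1.15 for Egr3, -0.51 to 0.33 for Fos and -0.41 to 0.26 for Jun. Among the other named genes, values near 0 between Rop7-III and Rop7-I changed direction, with -0.059 for Hdac4 and -0.00374 for Cblb under the B-cell covariate. Dnajb1 gave 0.00738 with a common median, 0.000788 with quantile normalization and 0.00192 with the myeloid covariate. With each sample left out, the range was -0.00715 to 0.0495 for Nfkbiz, -0.0213 to 0.0564 for Hdac7 and -0.0413 to 0.0205 for Dnajb1.

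Over all tested genes, the 1488 called between Rop7-III and Rop7-II became 206 with a 2-fold minimum and 3041 at an adjusted p under 0.05, the 588 between Rop7-III and Rop7-I became 128 and 1586, and the 912 between Rop7-I and Rop7-II became 115 and 2163. With each sample left out, the ranges were 834 to 1315, 258 to 830 and 416 to 875, and with only the clones compared the counts were 939, 926 and 433. The first was 560 with the myeloid marker covariate, the second 1062 with sample weights and the third 600 without the trend of the spread. Among the genes plotted from the related lists and Cd5, 910 values kept their direction and side of the limit, 75 lost a call, 13 gained one and 10 changed direction. The calls of these genes lost when 1 sample was left out were those of Hdac4 and Hdac7 in both pairs with Rop7-II, of Btg2, Rhob and Bcl6 between Rop7-I and Rop7-II, of Hsph1 between Rop7-III and Rop7-I and of Hsp90ab1 between Rop7-III and Rop7-II.

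The clones share replicate numbers in the labels. Deviations of same-numbered samples from their clone means had r between -0.39 and 0.11 for the 9 pairs over all tested genes. With so few samples per mean, these r cannot decide whether same-numbered samples share a batch. With the replicate number as a block, 0 of the 8 genes were called in each pair, and Jun between Rop7-III and Rop7-II had an adjusted p of 0.0234. The block changed the calls between Rop7-III and Rop7-I over all tested genes from 588 to 373.

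With 3 replicates per clone and no read depth, the 95% interval included a difference of 1 log2 unit in all 3 pairs for Nr4a1, Egr2 and Egr3. All of the 10 genes but Junb were at or below 12.3 TPM in every sample, and the weight of B-cell and myeloid RNA in their levels was not tested.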
